A study of Solanum lycopersicum with 9 samples.

Results

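A set of 7 genes of the brassinosteroid pathway were followed in the locular tissue of young tomato fruit, which fills the seed cavities as a gel. They are 4 genes of hormone synthesis (DWF1, also called DIM, CYP90B3, CPD and DWARF), the receptor gene BRI1 and the transcription factor genes BZR1 and BES1. They were chosen by name from a list of 7 gene identifiers, with earlier results of these data known. All 7 were found among the 34075 genes of the count table, and all 7 were among the 19358 genes that passed the low-count filter. RNA was sequenced from 2 CRISPR-edited lines of the zinc finger transcription factor SlZFP2, named c2.5 and c2.11, and from the unedited wild type (WT), with 3 libraries per genotype. All plants were of the dwarf cultivar Micro-Tom, grown in a greenhouse in long days, and all fruits were harvested 6 days after anthesis. Micro-Tom carries a mutated DWARF gene, so both edited lines and WT share that defect. Each library pooled the locular tissue of 6 fruits after the seeds were removed. The labels give neither the edited bases nor whether the pools came from separate plants or days, so p-values here measure the spread between pools alone, which may be technical.

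Brassinosteroids are steroid hormones that promote cell expansion and division. DWF1 is a sterol reductase that makes campesterol, the precursor of the hormone as well as a membrane sterol. CYP90B3 and CPD, a CYP90A-type enzyme, are cytochrome P450 enzymes that act on the precursor, and DWARF (CYP85A1) is the P450 enzyme that makes the active hormone castasterone. BRI1 is the receptor kinase at the cell surface that binds the hormone. In Arabidopsis, BZR1 and BES1 are the transcription factors at the end of the signalling chain, their activity is set by phosphorylation, and when active they repress synthesis genes, CPD among them. Transcript counts carry no measure of phosphorylation, hormone content or the form of a transcript.

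The 9 libraries held 19963325 to 20727310 counts. The WT libraries stood apart from the others, with scaling factors (TMM, explained under processing) of 0.857 to 0.911, against 1.05 to 1.08 in the line libraries. They also differed more among themselves by a chi-square of raw counts per degree of freedom. It was 4.43 to 9.13 for pairs of libraries of 1 edited line and 10.9 to 22.0 for pairs of WT libraries. Abundant genes weigh most in this measure. The spread of the brassinosteroid genes relative to their means was not always largest in WT. SlZFP2 itself had 31, 15 and 30 counts in c2.5, 34, 49 and 30 counts in c2.11, and 21, 13 and 11 counts in WT. SlZFP2 was called higher in both lines together (log2 change 0.76 ± 0.31, SE, edgeR adjusted p = 0.0487) and in c2.11 (1.04 ± 0.34, edgeR adjusted p = 0.0190), and did not pass in c2.5 (0.48 ± 0.35, edgeR adjusted p = 0.276). The call for both lines together ended without any 1 of 6 libraries (c2.5 replicates 1 and 3, c2.11 replicates 1 and 2, WT replicates 2 and 3, with an edgeR adjusted p of 0.0608 to 0.173), and that in c2.11 without c2.11 replicate 2 (0.0887) or WT replicate 2 (0.0571) or 3 (0.0722). Edits of a few bases can leave transcript levels as they were, so these counts do not check the genotype labels. Levels are given as normalized CPM, counts in CPM units relative to the TMM-scaled library, and changes as log2 fold changes of an edgeR quasi-likelihood test over all genes, called at an adjusted p under 0.05. In bulk tissue, fewer cells of a type and less RNA per cell cannot be told apart. Markers of seed, epidermis and vascular tissue could not be looked up, since the identifiers are not paired with symbols, and their part in the results was not tested.

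DWF1 and CPD, both enzymes of synthesis, fell about equally in both edited lines, BRI1 rose moderately, and DWARF and CYP90B3 showed no change past the threshold. BZR1 and BES1 were slightly lower relative to the median gene. For both lines together against WT, 5 of the 7 genes were called, 1 higher and 4 lower, where 57.1% of all tested genes were called, 28.5% higher and 28.6% lower. In c2.5 alone 4 of the 7 were called, 1 higher and 3 lower, beside 49.9% of all tested genes, 24.9% higher and 25.1% lower. In c2.11 alone 4 of the 7 were called, 1 higher and 3 lower, beside 54.6% of all tested genes, 27.3% higher and 27.3% lower. The shares called in either direction lay near or somewhat above the background and the shares called lower lay above it. These calls used TMM scaling. With total count scaling (library totals without TMM factors) 4 of the 7 were called in both lines together, DWF1 and CPD lower, BRI1 and DWARF higher. Of all tested genes 10756 were then called higher and 2940 lower. With 7 genes chosen by name, and with earlier results of these data known, nothing is read from these counts. The genes are described below by the size of their changes. Changes that were called and of at least 2-fold were seen in 2 of the 7, both lower. By that rule 6.98% of all tested genes were lower and 7.43% higher. The median log2 change was -0.17 over the 7 genes and 0.01 over all tested genes, and the median size of change was 0.49 and 0.30. The median of the 7 was the value of BZR1. With total count scaling BZR1 changed by 0.11, and the median of all tested genes was 0.29.

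**Figure D1:**
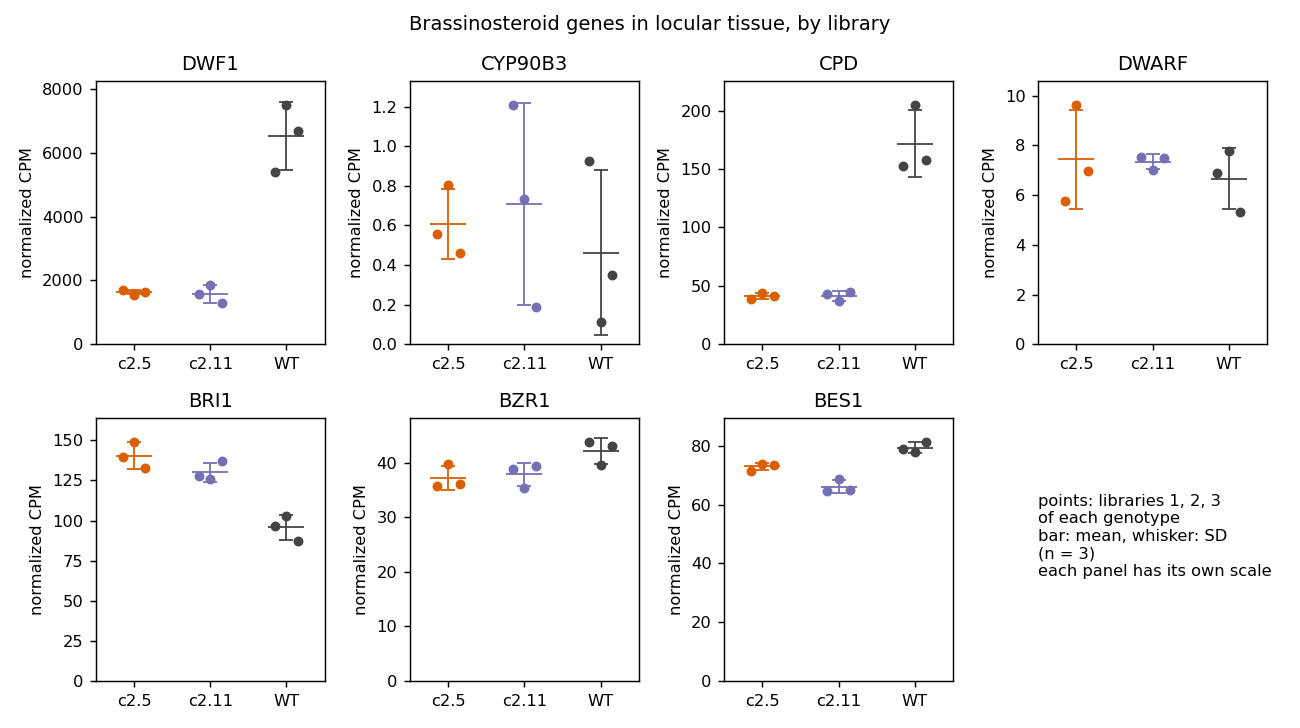
Normalized CPM (y axis, a scale per panel) of the 7 brassinosteroid genes in each library of c2.5, c2.11 and WT, with the mean and SD (n = 3). The line libraries lie far below the WT libraries for DWF1 and CPD and above them for BRI1, and the genotypes overlap for CYP90B3, DWARF and BZR1.

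DWF1 (Solyc02g069490.4) had 1710, 1559 and 1651 normalized CPM in c2.5, 1569, 1847 and 1298 in c2.11, and 5392, 7507 and 6700 in WT. The highest line library lay well below the lowest WT library. DWF1 took 0.176% of all counts on average in c2.5, 0.167% in c2.11 and 0.573% in WT. For both lines together the level was 4.07-fold lower than in WT (95% interval 3.39 to 4.89), a log2 change of -2.02 ± 0.12 (SE, edgeR adjusted p = 3.55e-07). In c2.5 alone the log2 change was -1.99 ± 0.15 (edgeR adjusted p = 2.79e-06), and in c2.11 alone it was -2.06 ± 0.15 (edgeR adjusted p = 2.03e-06). Of the 19358 tested genes, 489 had a more negative change in both lines together.

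CPD (Solyc06g051750.3) showed almost the same change. It had 38.8, 43.5 and 41.4 normalized CPM in c2.5, 42.9, 36.9 and 45.0 in c2.11, and 153, 205 and 158 in WT. Again no line library reached the lowest WT library. The level was 4.15-fold lower in both lines together (95% interval 3.58 to 4.81), a log2 change of -2.05 ± 0.10 (SE, edgeR adjusted p = 4.42e-08), and 477 tested genes had a more negative change. The log2 change was -2.06 ± 0.12 in c2.5 (edgeR adjusted p = 3.29e-07) and -2.05 ± 0.12 in c2.11 (edgeR adjusted p = 3.03e-07).

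The libraries stood in the same order for DWF1 and CPD in WT, and in opposite orders in each edited line. With 3 libraries per genotype such orders can easily arise by chance, and they were not tested. In WT, replicate 2 was the highest and replicate 1 the lowest for both genes. In c2.11, replicate 2 was the highest of the 3 for DWF1 and the lowest for CPD, and replicate 3 was the lowest for DWF1 and the highest for CPD. In c2.5, replicate 1 was the highest for DWF1 and the lowest for CPD. The spread relative to the mean was 4.62% for DWF1 in c2.5, 17.5% in c2.11 and 16.3% in WT, and 5.74%, 10.1% and 16.7% for CPD in the same genotypes.

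DWARF (Solyc02g089160.3), whose product makes castasterone and is defective in Micro-Tom, did not pass the threshold. It had 5.75, 9.63 and 6.96 normalized CPM in c2.5, 7.53, 7.01 and 7.51 in c2.11, and 6.90, 7.78 and 5.33 in WT, from 92 to 204 counts per library. The 3 genotypes overlapped, and the c2.5 libraries held both the highest and, after a WT library, the lowest of the 9 values. For both lines together the log2 change was 0.15 ± 0.16 (SE, edgeR adjusted p = 0.456), and its 95% interval ran from a level of 0.868 to 1.41 times that of WT. A fall of the size seen for DWF1 and CPD lies outside that interval. With total count scaling the change was 0.42 ± 0.16 and passed (edgeR adjusted p = 0.0355). The counts show neither the allele nor the form of the DWARF transcripts.

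CYP90B3 (Solyc02g085360.4), the enzyme of the CYP90B type that hydroxylates the sterol side chain, was too scarce for a firm statement. It had 12, 17 and 10 counts in c2.5, 26, 16 and 4 in c2.11, and 17, 2 and 6 in WT. All 3 genotypes overlapped, and the values differed several-fold within c2.11 and within WT. The log2 change in both lines together was 0.49 ± 0.62 (SE, edgeR adjusted p = 0.532), with a 95% interval from 0.536 to 3.65 times the WT level. The estimate rested on single WT libraries, at 1.49 without WT replicate 1 and 0.033 without WT replicate 2, and passed in neither case (edgeR adjusted p = 0.102 and 0.967).

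BRI1 (Solyc04g051510.1), the hormone receptor, rose in both lines. It had 139, 149 and 133 normalized CPM in c2.5, 128, 126 and 137 in c2.11, and 96.8, 103 and 87.5 in WT. Each line library was above each WT library, which was so for 24.6% of all tested genes. The level was 1.41-fold higher in both lines together (95% interval 1.29 to 1.55), a log2 change of 0.50 ± 0.06 (SE, edgeR adjusted p = 1.38e-05). It was 0.55 ± 0.07 in c2.5 (edgeR adjusted p = 2.21e-05) and 0.44 ± 0.07 in c2.11 (edgeR adjusted p = 0.000132). The change was outside the spread of the libraries but not rare in size, since 6499 of the 19358 tested genes changed more in absolute terms.

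BES1 (Solyc02g063010.3), a transcription factor of the signalling chain, had 71.5, 73.8 and 73.5 normalized CPM in c2.5, 64.5, 68.8 and 65.0 in c2.11, and 78.8, 77.7 and 81.4 in WT. All line libraries were below all WT libraries, as they were for DWF1 and CPD, which makes 3 of the 7 genes, where 24.9% of all tested genes did so. For both lines together the log2 change was -0.19 ± 0.04 (SE, edgeR adjusted p = 0.00215), 1.14-fold lower (95% interval 1.07 to 1.22). In c2.11 it was -0.26 ± 0.05 (edgeR adjusted p = 0.000723), and in c2.5 it was -0.12 ± 0.05 and did not pass (edgeR adjusted p = 0.0631). The raw counts behind these levels were 1542, 1563 and 1596 in c2.5, 1388, 1501 and 1394 in c2.11, and 1450, 1369 and 1404 in WT, so that the genotypes overlapped in raw counts, though not in scaled levels.

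BZR1 (Solyc04g079980.3), of the same family as BES1, had 35.7, 39.7 and 36.1 normalized CPM in c2.5, 38.8, 35.4 and 39.4 in c2.11, and 43.9, 39.6 and 43.2 in WT. A single line library, c2.5 replicate 2, exceeded the lowest WT library, and the rest lay below. The log2 change in both lines together was -0.17 ± 0.06 (SE, edgeR adjusted p = 0.0254), 1.12-fold lower (95% interval 1.03 to 1.23). It was -0.18 ± 0.07 in c2.5 (edgeR adjusted p = 0.0401) and -0.16 ± 0.07 in c2.11, which did not pass (edgeR adjusted p = 0.0682). The call for both lines together ended without c2.5 replicate 1 (edgeR adjusted p = 0.0574) or 3 (0.0541) and without WT replicate 1 (0.0954) or 3 (0.0807). The call in c2.5 ended without c2.5 replicate 1 (0.138) or 3 (0.123), c2.11 replicate 1 (0.0527) or WT replicate 1 (0.110) or 3 (0.0984), and with DESeq2 (0.0606), without a low-count filter (0.0609), with only c2.5 and WT fitted (0.0561) or with the replicate block (0.0568). In c2.11 the change passed without WT replicate 2 (0.0337).

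The balance between BZR1 and BES1 within a library does not depend on scaling. The log2 ratio of their counts was -1.0, -0.89 and -1.03 in c2.5, -0.73, -0.96 and -0.72 in c2.11, and -0.84, -0.97 and -0.91 in WT. The c2.11 and c2.5 libraries both overlapped the WT range. The c2.11 mean was -0.80 ± 0.13, against -0.97 ± 0.07 in c2.5 and -0.91 ± 0.07 in WT (SD, n = 3 each). The mean over the 6 line libraries was above that of WT by 0.02 on the log2 scale (two-sided exact permutation test, p = 0.798). This test pools c2.11, whose mean was above that of WT, with c2.5, whose mean was below it. It therefore cannot tell whether either line alone differs from WT.

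**Figure D2:**
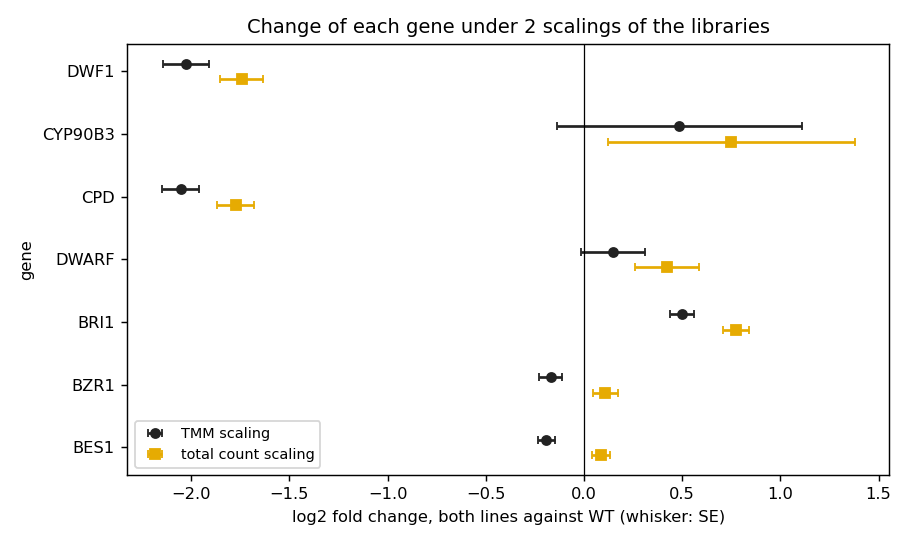
Log2 fold change in both lines together against WT (x axis, whiskers SE) of each gene under TMM scaling and under total count scaling. DWF1 and CPD stay far below 0 and BRI1 above it, while BZR1 and BES1 lie on opposite sides of 0 under the 2 scalings.

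The small changes of BZR1 and BES1 were relative to the median gene and changed sign with the scaling of the libraries. With total count scaling the median log2 change of all tested genes was 0.29, beside 0.01 with TMM, with 10756 genes called higher and 2940 lower in place of 5523 and 5529. Under it BES1 changed by 0.09 ± 0.04 (edgeR adjusted p = 0.0928) and BZR1 by 0.11 ± 0.06 (edgeR adjusted p = 0.144). In c2.5 alone BES1 was then called higher than WT, by 0.16 ± 0.05 (edgeR adjusted p = 0.0124). DWF1, at -1.74 ± 0.11 (edgeR adjusted p = 4.37e-07), and CPD, at -1.77 ± 0.09 (edgeR adjusted p = 7.10e-08), kept their direction. BRI1 rose by 0.77 ± 0.07 (edgeR adjusted p = 4.76e-07).

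**Figure D3:**
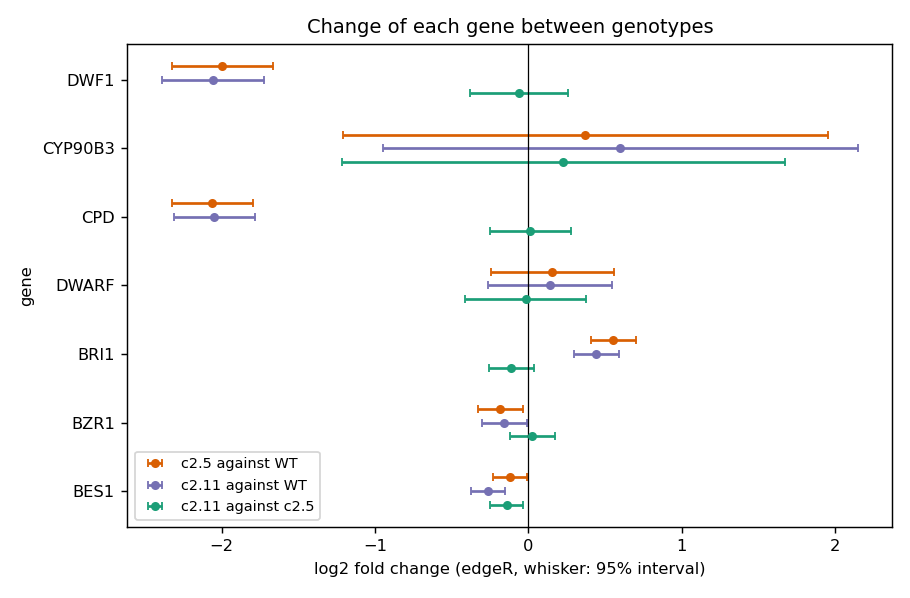
Log2 fold change (x axis, whiskers 95% interval) of each gene, for c2.5 and c2.11 each against WT, and for c2.11 over c2.5. The intervals between the lines hold 0 for 6 of the genes, and that of BES1 lies below 0 before adjustment.

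The edited lines were compared directly, since their comparisons with WT share the 3 WT libraries. None of the 7 genes was called between c2.11 and c2.5 by edgeR or by DESeq2. Of all tested genes edgeR called 1.29%, 0.708% higher and 0.579% lower in c2.11, and DESeq2 called 442 of 19358. Before adjustment 1 of the 7 fell under the threshold of 0.05, namely BES1. Its log2 difference, c2.11 over c2.5, was -0.14 ± 0.05 (SE, edgeR adjusted p = 0.215). For DWF1 the difference was -0.06 (95% interval -0.38 to 0.26) and for CPD it was 0.01 (-0.25 to 0.27), so that any difference between the lines in these genes was small beside their change against WT. For BRI1 it was -0.11 (-0.26 to 0.04), for BZR1 0.03 (-0.12 to 0.17), for DWARF -0.02 (-0.41 to 0.38) and for CYP90B3 0.23 (-1.22 to 1.67). These values are from the fit over all 9 libraries, which includes the WT libraries, more variable by the chi-square above. With only the 2 lines fitted, 626 of the 19009 genes tested there and 0 of the 7 were called, and BES1 had an edgeR adjusted p of 0.129.

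**Figure D4:**
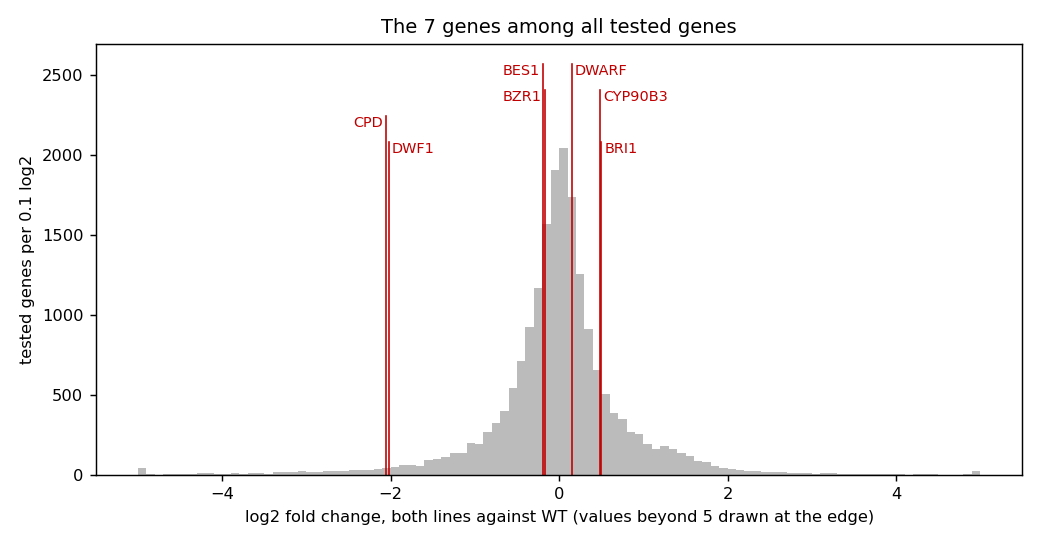
Number of tested genes per step of 0.1 in log2 fold change (both lines against WT), with lines at the 7 brassinosteroid genes. CPD and DWF1 stand in the lower tail, and the other 5 genes stand in the bulk of the distribution.

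By the identifiers, DWF1, CYP90B3, DWARF and BES1 are on chromosome 2, BRI1 and BZR1 on chromosome 4 and CPD on chromosome 6. The members are not neighbours of one another. Among the 5 tested genes on either side of each, 26 of 70 were called higher and 26 lower in both lines together, 74.3% in all, beside 57.1% of all tested genes. The 10 neighbours of CPD had log2 changes of -0.23 to 1.35, with 3 called higher, 2 lower and 5 not called. DWF1 lay in a run of lower genes, since the 3 tested genes before it (-1.05, -0.90 and -0.22) and the 2 after it (-1.59 and -1.09) were all called lower, and the 3 beyond these were called higher. The 4 tested genes before BRI1 were called higher, and the gene before these 4 was called lower (-2.08). All calls of neighbours are from TMM scaling, and the neighbours were not followed under total count scaling. Where neighbouring genes overlap, their reads cannot be told apart without the strand setting of the counting, which the labels do not give.

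**Figure D5:**
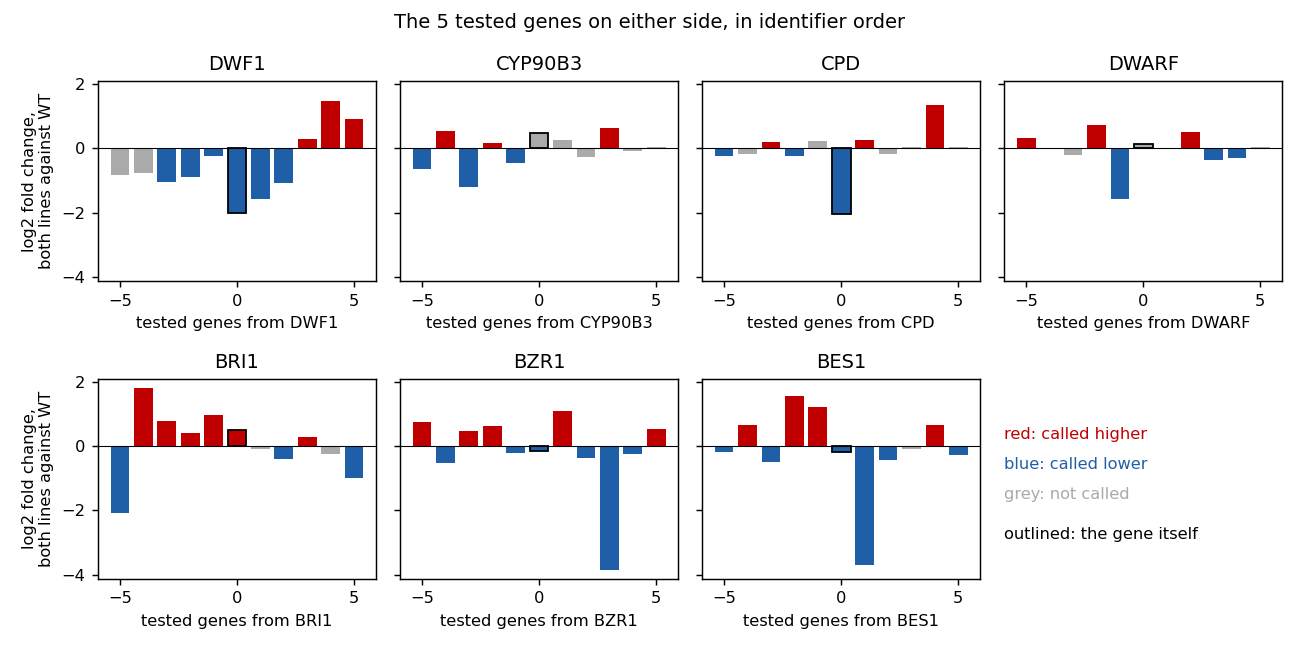
Log2 fold change in both lines together against WT (y axis) of each gene, outlined at 0, and of the 5 tested genes on either side in identifier order (x axis), coloured by call. DWF1 is flanked by genes called lower, whereas no neighbour of CPD had a log2 change below -0.23.

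Among 17862 other genes with a mean of at least 1 CPM, the pattern over the 9 libraries most like that of BRI1 was that of Solyc07g065710.3, with a mean absolute difference of 0.04 in gene-centred log2 CPM, beside a median of 0.27 over all candidates. It had 99.4 ± 6.41 normalized CPM in c2.5, 93.8 ± 3.49 in c2.11 and 69.1 ± 1.20 in WT (SD, n = 3 each) and rose by 0.48 ± 0.05 on the log2 scale (SE, edgeR adjusted p = 4.21e-06). The gene most like DWARF was Solyc12g006300.2, with a mean absolute difference of 0.09, beside a median of 0.25. It had 4.18 ± 0.858 normalized CPM in c2.5, 4.16 ± 0.464 in c2.11 and 4.03 ± 0.342 in WT (SD, n = 3 each) and did not pass the threshold (0.05 ± 0.15, edgeR adjusted p = 0.809). Both genes were chosen for their pattern in these same 9 libraries, so their changes and calls follow from that choice. The products of these 2 genes are not annotated in the table. Of 21 further brassinosteroid genes listed by symbol, such as those of the co-receptor BAK1 and the reductase DET2, 9 were in the RefSeq table and 0 could be paired with an identifier of the count table, so their levels are not analysed here.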

How the data were processed

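The authors deposited raw counts per gene, made from paired 150-base reads of a stranded library kit, per the labels' protocols. The submitters' processing notes name FastQC and featureCounts, without versions. The aligner, genome build, annotation, strand setting and treatment of multiply mapped reads are unknown here (not given in the sources used here), and no coordinates are printed. Gene names come from the list that chose the members. The RefSeq table (41476 genes, assembly SLM_r2.1) holds 0 of the Solyc identifiers. It lists CYP90B3, CYP90A5 (CPD), CYP85A1 (DWARF), CURL3 (BRI1) and BZR1 on the chromosomes that the identifiers give, and neither DWF1 nor BES1. The members and lists were chosen with earlier results of these data known.

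The main test was that of edgeR 4.0.16 under R 4.3.3, with filterByExpr, TMM factors (which centre the log ratios of most genes) and a robust quasi-likelihood fit over all 9 libraries, with Benjamini-Hochberg adjustment over 19358 genes. The SE is the log2 change divided by the root of F. The script was tested on simulated counts. Named genes were all 7 members, SlZFP2, and the gene most like BRI1 and DWARF. Alternatives were DESeq2 1.42.0, other scalings and filters, fewer genotypes, a replicate block and the removal of each library.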

Additional observations from a re-analysis of the deposited data

How the results depend on the processing

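The changes of DWF1, CPD and BRI1 against WT kept their direction and their call in each alternative run, with log2 changes in both lines together of -2.15 to -1.74, -2.13 to -1.77 and 0.44 to 0.77. With total count scaling, the change of DWARF in both lines together passed (0.42). Those of BZR1 and BES1 turned to 0.11 and 0.086 in both lines together, 0.10 and 0.16 in c2.5, and 0.12 and 0.011 in c2.11, since the median gene shifts by 0.29. The BZR1 call in c2.5 ended with DESeq2 (-0.19), no low-count filter (-0.17), the compared genotypes only (-0.18) and the replicate block (-0.18). The cause was not tested. Without single libraries, BZR1 ranged from -0.21 to -0.14 in both lines together, -0.23 to -0.15 in c2.5 and -0.20 to -0.11 in c2.11. DWARF ranged from 0.012 to 0.27 in both lines together, -0.070 to 0.31 in c2.5 and 0.0027 to 0.26 in c2.11, and CYP90B3 from 0.033 to 1.49, -0.080 to 1.38 and -0.014 to 1.60, with no value past the threshold. SlZFP2, for which these alternatives were added after seeing the data, ranged from 0.60 to 1.05 in both lines together, where the replicate block (adjusted p = 0.0602), DESeq2 (0.0808) and median-of-ratios factors (0.0504) also ended its call, and from 0.82 to 1.33 in c2.11. Between c2.11 and c2.5 the same removals gave -0.19 to 0.059 for DWF1, -0.39 to 0.67 for CYP90B3, -0.049 to 0.091 for CPD, -0.17 to 0.21 for DWARF and -0.0032 to 0.076 for BZR1, none of which passed. The log2 ratio of BZR1 to BES1 moved between -0.011 and 0.056. The number of genes called between c2.11 and c2.5 was 249, with 442 by DESeq2, 626 with the compared genotypes only and 70 to 356 without single libraries.

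Same-numbered libraries share only a number in the labels. Their deviations from their own genotype's mean correlated at -0.27 to 0.21, and those of differently numbered libraries at -0.25 to 0.34. The replicate block gave 0.0034 for DWARF between c2.11 and c2.5 and ended no call of the 7 brassinosteroid genes other than that of BZR1 in c2.5. CYP90B3 did not pass the filter of at least 1 CPM in 6 libraries and has no value there. Its 2 to 26 counts per library limit what can be said of it.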
